A study of Saccharomyces cerevisiae BY4741 with 4 samples.

Results

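The genes described here encode the Paf1 complex and the enzymes that place ubiquitin on histone H2B or take it off in budding yeast. They were chosen by systematic name, and all 10 had a level in both strains, out of 5219 genes in the deposited table and 5038 genes with both levels. The deletion strain (BY4741-spp1Δ, genotype spp1D::KanMX6) carries the KanMX6 drug resistance cassette in place of SPP1, and its other alleles are not listed. It was set against wild-type BY4741, which is MATa with the alleles his3Δ1, leu2Δ0 and ura3Δ0. Both were taken in log phase in rich glucose medium at an optical density of 0.6, with fission yeast cells added at 25% by volume as a spike-in. Trimethylated lysine 4 of histone H3 (H3K4me3) was measured by chromatin immunoprecipitation of nucleosomes released with micrococcal nuclease, followed by sequencing. Of the 4 libraries in the series, the 2 H3K4me3 libraries were used, 1 per strain, so no difference below has a replicate error, a test or a p-value. The depth of each library is unknown, and so is the precision of a single gene's level.

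H3K4me3 is placed by COMPASS, the complex in which Spp1 is a PHD finger subunit, and lies mainly over the 5′ part of transcribed genes. The Paf1 complex travels with RNA polymerase II and helps Rad6 and Bre1 attach ubiquitin to histone H2B. That ubiquitin in turn stimulates methylation of histone H3 by COMPASS and by Dot1, and the proteases Ubp8 and Ubp10 remove it. The values below are levels of the mark on the genes that encode these proteins. They are not measurements of the proteins or of H2B ubiquitination.

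The strain label was checked on the SPP1 gene, whose level was 0.0982 in the deletion strain and 1.89 in wild type, the second lowest ratio in the table. Over all genes the median level was 0.494 in the deletion strain and 2.01 in wild type, and the median gene kept 26.3% of its wild-type level. On the left arm of chromosome IV, 212 genes had ratios that scattered widely, with a standard deviation of 1.06 on the log2 scale, against 0.52 over the genes outside that arm. BRE1 is the 1 gene of the 10 on that arm, and the part of this scatter in its value was not tested.

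All 10 genes carried less H3K4me3 in the deletion strain than in wild type, as did all but 17 of the 5038 genes. Those 17 all lie on the widely scattered left arm of chromosome IV. Outside that arm the highest ratio of any gene was 91.7% of wild type. They kept between 24.5% (PAF1) and 49.3% (LEO1) of their wild-type level, with a median log2 ratio of -1.54 against -1.93 over all genes, a difference of 0.38. All 10 lay below 50% of wild type, as did 93.8% of all genes. This count was 8 with a pseudocount, which placed LEO1 and LGE1 above 50%, and 9 after subtraction of a background from each library, which placed LEO1 above it. Only PAF1 lay below 25%, where 44.6% of all genes lay, and this count was 0 with the pseudocount and 2 after the subtraction. Both all-gene shares are for the levels as deposited and were not computed under these settings, so the changed counts have no background beside them. The same settings gave differences of 0.23 and 0.57 from all genes. By ratio, 8 of the 10 stood above the all-gene median, which by definition 50% of genes exceed. None of the 10 lay below the middle 50% of all genes, and 5 lay above it. Summed over the 10 genes, the level in the deletion strain was 36.3% of the wild-type sum, against 29.5% over all genes.

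**Figure D1:**
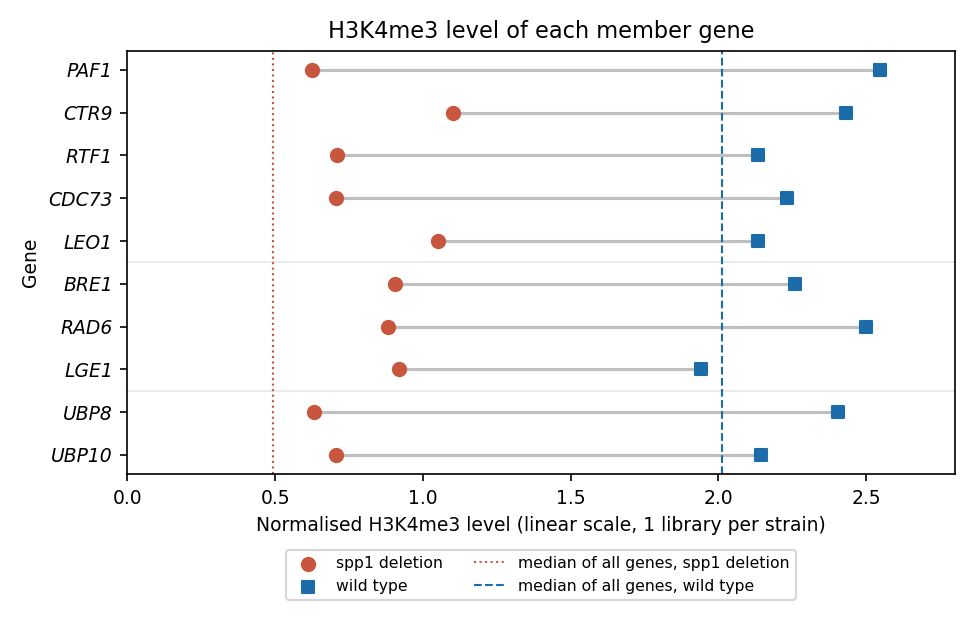
Normalised H3K4me3 level (horizontal axis, linear) of each of the 10 genes in the spp1 deletion strain (circles) and in wild type (squares), 1 library each, with grey bars joining the values of 1 gene and vertical lines at the medians of all genes. All 10 circles lie to the right of the all-gene median of the deletion strain, 0.494, while LGE1 is the 1 square left of the wild-type median, 2.01.

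PAF1 encodes the subunit that gives the Paf1 complex its name (YBR279W, chromosome II, 761257 to 762594). Its H3K4me3 level was 0.623 in the deletion strain and 2.55 in wild type, a log2 ratio of -2.03. It had the highest wild-type level of the 10 genes and the lowest level of them in the deletion strain. CTR9 encodes the large scaffold subunit of the complex (YOL145C, XV, 49555 to 52788). Its level was 1.10 in the deletion strain and 2.43 in wild type, so that it kept 45.3%. CTR9 had the highest level of the 10 genes in the deletion strain, although its wild-type level was slightly below that of PAF1.

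RTF1 encodes the subunit whose histone modification domain stimulates ubiquitination of H2B by Rad6 and Bre1 (YGL244W, VII, 41498 to 43174). Its level was 0.711 in the deletion strain and 2.13 in wild type, and it kept 33.3%. CDC73 encodes a subunit that binds phosphorylated elongation proteins and is the counterpart of human parafibromin (YLR418C, XII, 956914 to 958095). Its level was 0.706 in the deletion strain and 2.23 in wild type, and it kept 31.6%. RTF1 and CDC73 lay close together in the deletion strain, while in wild type they stood at percentiles 63.5 and 74.2 of all genes. LEO1 encodes a subunit that helps hold the complex on chromatin (YOR123C, XV, 553176 to 554570). Its level was 1.05 in the deletion strain and 2.13 in wild type, a log2 ratio of -1.02. LEO1 and RTF1 had almost the same wild-type level, and LEO1 carried the higher level in the deletion strain.

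The 5 genes of the Paf1 complex, whose products work as 1 assembly, thus did not share 1 ratio. Their median was 33.3% of wild type, and the ratio of LEO1 was 2.01 times that of PAF1. The median absolute difference between pairs of these 5 genes was 0.48 on the log2 scale, against 0.51 between all pairs of genes in the table. With 1 library per strain, it cannot be said which of these differences between genes exceed measurement error.

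RAD6 encodes the ubiquitin-conjugating enzyme that modifies H2B and also acts in DNA damage tolerance and protein turnover (YGL058W, VII, 393986 to 394504). Its level was 0.881 in the deletion strain and 2.50 in wild type, so that it kept 35.3%. BRE1 encodes the RING ubiquitin ligase that directs Rad6 to H2B (YDL074C, IV, 324047 to 326149). Its level was 0.907 in the deletion strain and 2.26 in wild type, and it kept 40.2%. LGE1 encodes a partner of Bre1, named for the large cells of its mutant (YPL055C, XVI, 453992 to 454990). Its level was 0.919 in the deletion strain and 1.94 in wild type, a log2 ratio of -1.08. Levels of the 3 genes in the deletion strain lay within a 1.04-fold range, whereas their wild-type levels spanned a 1.29-fold range. LGE1 was the 1 gene of the 10 with a wild-type level below the all-gene median. The median ratio of the 3 genes was 40.2% of wild type, and without BRE1 the other genes of this group lay at 35.3% and 47.3%.

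UBP8 encodes the ubiquitin protease of the SAGA coactivator (YMR223W, XIII, 716715 to 718130). Its level was 0.632 in the deletion strain and 2.40 in wild type, and its 26.3% was almost exactly the all-gene median. UBP10 encodes a ubiquitin protease that acts on H2B outside SAGA and is tied to silencing (YNL186W, XIV, 289498 to 291876). Its level was 0.705 in the deletion strain and 2.14 in wild type, and it kept 32.9%. The ratios of both protease genes lay below those of all 3 ubiquitination genes, and the median was 29.6%. Groups of 2 and 3 genes with no replicates allow no statement beyond these values.

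The levels of the 10 genes spanned a 1.77-fold range in the deletion strain and a 1.31-fold range in wild type. The range was also wider in the deletion strain over all genes outside chromosome IV left, 25.5-fold against 12.7-fold in wild type. In order of rising ratio the genes were PAF1, UBP8, CDC73, UBP10, RTF1, RAD6, BRE1, CTR9, LGE1 and LEO1. The widest steps in percent of wild type were those of 5.31 points above UBP8, 5.17 points above BRE1 and 4.91 points above RAD6, and every other step was below 2 points. Across these 10 genes, which are not independent replicates, the log2 ratio had a Spearman correlation of 0.95 with the level in the deletion strain and of -0.47 with the wild-type level. Both levels are terms of the ratio. Over all 5038 genes the correlation of the log2 ratio with wild-type level was 0.22, and that between the levels of both strains was 0.76, against -0.31 within the 10. The wild-type levels span 12.7-fold over all genes and 1.31-fold over the 10, so these correlations are not like for like. No correlation was computed over all genes limited to the narrower range.

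**Figure D2:**
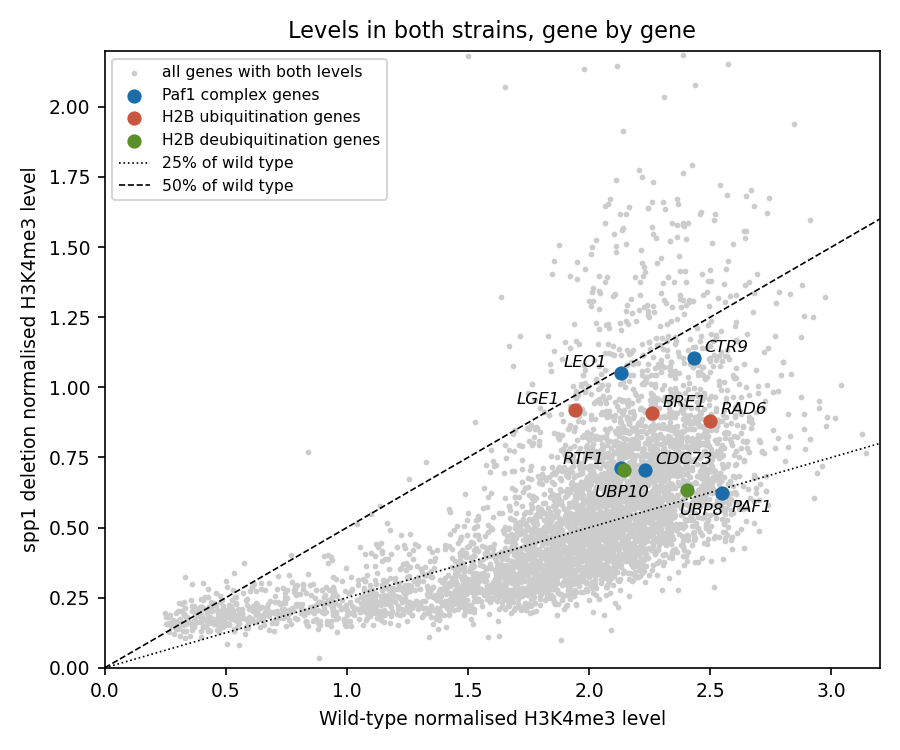
Level in the spp1 deletion strain (vertical axis) against level in wild type (horizontal axis), both normalised H3K4me3 on a linear scale, for all genes with both levels (grey) and the 10 named genes (coloured by group). 13 grey genes above 2.2 on the vertical axis, all on the left arm of chromosome IV, are not drawn. The 10 genes lie below the line at 50% of wild type, and PAF1 is the 1 below the line at 25%.

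Because 9 of the 10 genes had wild-type levels above the all-gene median, each was also set beside genes of like wild-type level. Between the lowest and highest wild-type level of the 10 there were 2675 other genes, which had a median of 28.1% of wild type. Of these genes 36.2% lay below 25% of wild type and 92.8% below 50%. In the deletion strain these genes had a median level of 0.619, and 50.5% of them stood at or below the lowest of the 10, PAF1. When wild-type level was used to sort all genes into 10 classes of like size, 8 of the 10 genes exceeded the median ratio of their own class. LGE1 had a higher ratio than 93.4% of the other genes in its class, LEO1 than 92.6%, CTR9 than 87.5% and BRE1 than 84.1%. RTF1, RAD6, UBP10 and CDC73 exceeded between 63.8% and 66.9% of theirs. PAF1 exceeded 23.1% and UBP8 32.4% of genes in their classes, where the class medians were 30.9% and 30.6% of wild type. Both were thus nearer the lower end among genes with as much H3K4me3 in wild type than among all genes, where they stood at percentiles 42.4 and 49.9.

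The sources used here do not say how a level was averaged over a gene, or whether a neighbour's signal could enter it. None of the 10 genes overlaps another gene in the RefSeq annotation used, and none had a pair of levels identical to those of another gene. Across 4938 genes with an annotated length, the wild-type level had a Spearman correlation of 0.12 with gene length and the log2 ratio one of -0.11. Among the 10, which range from 519 bases (RAD6) to 3234 bases (CTR9), the correlation of the log2 ratio with length was 0.042.

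The nearest gene with both levels on each side was the adjacent annotated gene in all 20 cases. Upstream neighbours lay 253 to 768 bases away, 5 divergent and 5 tandem, and downstream neighbours 106 to 1058 bases away, 7 convergent and 3 tandem. The 20 neighbours kept a median of 31.6% of their wild-type level, from 16.5% (SAF1, after PAF1) to 65.0% (RPL31A, a ribosomal protein gene after BRE1, on the same widely scattered left arm of chromosome IV). Of the 20 neighbours, 7 lay below 25% of wild type and 11 above the all-gene median ratio, against 44.6% and 50% of all genes. The ratio of CTR9, LEO1, RAD6 and LGE1 was above that of both neighbours, the other 6 genes lay between theirs, and none lay below both. LGE1 exceeded its downstream neighbour LCL1 by only 0.015 on the log2 scale. The share of all genes that stand above both neighbours was not computed, so these counts have no background beside them.

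Of the 10 genes, CTR9 had the largest difference from a downstream neighbour, 1.32 on the log2 scale, and RAD6 that from an upstream one, 0.91. The divergent partner of CTR9, NOP8, a ribosome biogenesis gene whose start lies 309 bases away, had 0.665 in the deletion strain and 2.58 in wild type, 25.8% of wild type. The convergent neighbour of CTR9, PSF3, which encodes a GINS replication subunit, kept 18.2%. RAD6 lay between PKP2 (18.8%) and GEP7 (21.7%), both of which kept less than its own 35.3%. LEO1 kept more than UBP2 (33.4%), itself a ubiquitin protease gene, and the profilin gene PFY1 (36.6%).

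Elsewhere a member and a neighbour had almost the same ratio. LGE1 and its tandem downstream neighbour LCL1 kept 47.3% and 46.8%, with LCL1 at 0.923 in the deletion strain and 1.97 in wild type. On its other side the divergent gene LEE1 kept 42.9%, at much lower levels of 0.155 in the deletion strain and 0.361 in wild type. The 1st percentiles of these libraries were 0.149 and 0.362, so the ratio of LEE1 rests on very low signal. RTF1 and the glutamyl-tRNA synthetase gene GUS1 upstream of it differed by 0.017 on the log2 scale. UBP10 and MRPL19, a mitochondrial ribosomal protein gene that converges on it, differed by 0.0081, while SWT21 upstream of UBP10 kept 24.3%. PAF1 differed by 0.10 from DPB3, a DNA polymerase epsilon subunit gene, which kept 26.2%.

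The remaining neighbours fell on either side of the member. CDC73 had the divergent gene YLR419W at 43.5% and VPS36, of endosomal sorting, at 30.1%. UBP8 had FSH2 at 33.2% and MRE11, of DNA break repair, at 16.5%. BRE1 had the divergent gene AHK1 at 33.4% on the side away from RPL31A, and TAD1, of tRNA modification, lay at 21.9% after RTF1. The median absolute difference between members and neighbours was 0.45 on the log2 scale, and that between adjacent measured genes over the genome was 0.47.

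**Figure D3:**
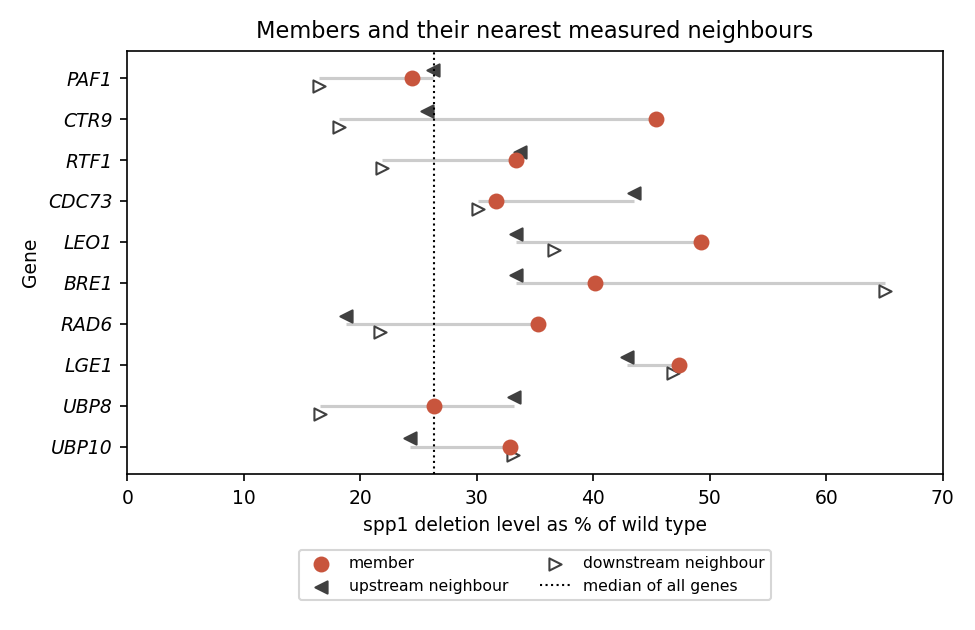
Level in the spp1 deletion strain as a percentage of the wild-type level (horizontal axis) for each of the 10 genes (circles) and for the nearest measured gene upstream (filled triangles) and downstream (open triangles), with a dotted line at the all-gene median, 26.3%. Triangles are shifted up and down so that none is hidden. CTR9, LEO1, RAD6 and LGE1 lie to the right of both neighbours, and BRE1 lies left of its downstream neighbour RPL31A at 65.0%.

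Other genes of the same pathway were listed by function. Apart from SPP1, 27 of 28 listed genes had both levels. Of these 26 lay below 50% of wild type, 11 below 25% and 14 above the all-gene median ratio. The shares of all genes were 93.8%, 44.6% and 50%, so these counts are near the background. The median of the 27 genes was 28.2%, against 26.3% over all genes. The 6 partners of the Paf1 complex in elongation had a median of 37.5%, with 5 of 6 above the all-gene median. They ranged from the chromatin remodeller gene CHD1 (25.7%) to SPT5 (48.4%), whose product binds RNA polymerase II and helps recruit the Paf1 complex. SPT5 had 1.17 in the deletion strain and 2.42 in wild type, close to the levels of CTR9. The 4 kinase and cyclin genes that act beside the complex had a median of 36.8%. They ranged from BUR2 (21.2%), a cyclin gene, to KIN28 (71.9%), the TFIIH kinase gene, which lies on the left arm of chromosome IV. Without KIN28 the middle value of this list was 29.5%.

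The remaining lists had lower medians than the elongation and kinase lists. Of these, the H2B and ubiquitin supply list lay above the all-gene median of 26.3%. The 3 ubiquitination genes described above had the highest list median, 40.2%. With so few genes per list and 1 library per strain, these medians cannot order the lists by function. The SAGA deubiquitination module genes, whose products work with Ubp8, kept a median of 23.8%, from SGF11 (18.8%) to SUS1, with 0.535 in the deletion strain and 1.84 in wild type. The genes supplying H2B and ubiquitin kept 28.4%, from the polyubiquitin gene UBI4 (20.7%) to UBA1 (33.7%), which encodes the ubiquitin-activating enzyme. The sources used here do not say how reads shared by near-identical histone or ubiquitin genes were assigned. The genes of the other ligases that work with Rad6 lay at 25.2% (UBR1) and 20.3% (RAD18). DOT1, which encodes the methylase of a lysine in the core of H3, kept 18.6%, and SET2, which encodes the methylase of another H3 lysine over gene bodies, kept 29.7%. The 6 measured COMPASS genes other than SPP1 had a median of 21.4%, from SWD1 (18.5%) to SDC1 (35.0%).

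**Figure D4:**
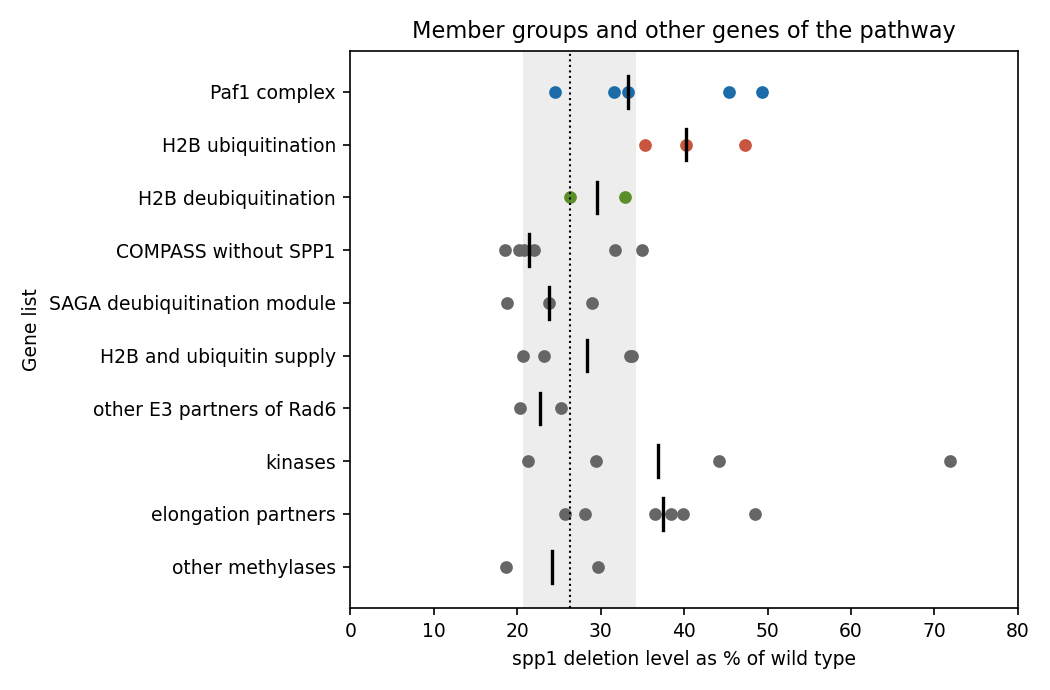
Level in the spp1 deletion strain as a percentage of the wild-type level (horizontal axis) for each gene (points) of the member groups (coloured) and of the other pathway lists (grey), with a black bar at each list's median. The shaded band is the middle 50% of all genes, 20.8% to 34.1%, and the dotted line their median. The Paf1 complex genes spread from 24.5% to 49.3%, and the 3 ubiquitination genes all lie right of the band.

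For each gene, the gene outside the list with the nearest pair of levels was found by Euclidean distance over the log2 levels of the 2 libraries. For CTR9 it was NOP4 (1.11 in the deletion strain and 2.44 in wild type), a ribosome biogenesis gene. For LEO1 it was RPA34 (1.05 in the deletion strain and 2.12 in wild type), an RNA polymerase I subunit gene, and for LGE1 it was its own neighbour LCL1. PAF1 lay nearest to ALK2, RTF1 to ATG12, CDC73 to GLC8, BRE1 to ACF4, RAD6 to HRB1, UBP8 to PML39 and UBP10 to PMT2. All of these lay within 0.023 on the log2 scale, in a table where many genes have similar levels and only 2 libraries define the likeness.

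That these genes lie below wild type rests on the authors' scaling, and the series text says that the spike-in makes the strains comparable. Dividing the levels of a library by their sum makes the sums of both strains equal. It therefore removes any overall loss and cannot show one. When the levels of a library were divided by their sum, the median log2 ratio of all genes was -0.17 in place of -1.93, a shift of 1.76 for every gene. Then 8 of the 10 genes lay above wild type in their share of the total, as did 38.4% of all genes, and PAF1 and UBP8 lay below. The order of the 10 genes and their difference of 0.38 from all genes do not move with such a factor.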

How the data were processed

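For each gene the authors deposited a normalised H3K4me3 signal in each of 2 libraries, per the file headers, and the series text says that the fission yeast spike-in makes the strains comparable. The submitters' processing notes name Bowtie2, SAMtools and bedtools and the builds sacCer3 and ASM294v2. Versions, the part of each gene averaged and any use of the input are not stated in these sources. The input library and the second spp1 library, with no assay in its title, were not analysed here.

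Levels were used as deposited, on a linear scale, with no filter and no pseudocount. Of 5219 systematic names, after 3 lines had been emptied for this work, 5116 matched the RefSeq table of assembly R64, which gave symbols and 1-based coordinates, and strand came from the systematic name. Ratios, medians and neighbours were computed with Python 3.11.15, pandas 2.3.3 and SciPy 1.17.1, and the ratio step was tested on simulated levels. No test was made. Depth is unknown, so no interval is given. The genes, lists and the rule for naming genes (all 10, SPP1, nearest neighbours, most alike gene, and the extremes of each list or all of a short list) were chosen with earlier results of these data known. Promoter sequences were not used here.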

Additional observations from a re-analysis of the deposited data

How the results depend on the processing

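The alternatives were a pseudocount of 0.201 (10% of the median wild-type level), scaling of each library to its own sum, background subtraction (the 1st percentile of that library), exclusion of chromosome IV left, a floor on wild-type level, counting identical genes once, means in place of medians, and finer level classes. With the pseudocount the median log2 ratios were -1.34 (10 genes), -1.36 (Paf1 complex), -1.15 (ubiquitination) and -1.51 (deubiquitination), the difference from all genes was 0.23, and 0 of the 10 lay below 25% of wild type. A pseudocount draws every ratio towards equality. After scaling to the sum the same medians were 0.22, 0.17, 0.44 and -0.0054, and 0 genes lay below 25% and 0 below 50%. The log2 ratios that turned positive were 0.62 for CTR9, 0.17 for RTF1, 0.099 for CDC73, 0.74 for LEO1, 0.44 for BRE1, 0.26 for RAD6, 0.68 for LGE1 and 0.16 for UBP10, since a common factor was removed. After background subtraction the deubiquitination median was -1.88, the difference from all genes 0.57, and 2 genes, PAF1 and UBP8, lay below 25%. The cause was not tested. Shares of all genes below 25% or 50% of wild type were not computed for these alternatives. Leaving out each gene in turn gave medians from -1.59 to -1.50 (10 genes), -1.62 to -1.36 (Paf1 complex) and -1.41 to -1.20 (ubiquitination). Every other alternative left a median or difference within 0.1 and a count within 1.5 times. No paired analysis was possible because each strain had 1 library. The search for promoter motifs was not run. The main limits are the single library per strain, the unknown depth and the authors' scaling between libraries.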
